A study of Mus with 6 samples.

Results

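Inward-rectifier, leak and ligand-gated potassium channels were described in mouse basolateral amygdala, a region of the temporal lobe studied for fear memory. The 41 genes were taken by name from the protein-coding genes of a table of 54532 genes. There were 15 inward-rectifier (Kir) genes named Kcnj and 14 tandem-pore (K2P) leak channel genes named Kcnk. The other 12 were genes for channels opened by calcium or sodium inside the cell and for their subunits (Kcnn, Kcnma1, Kcnmb and Kcnt), with their relative Kcnu1. The samples were 3 wild-type (WT) and 3 Cntnap4 knockout (KO) RNA-seq libraries, all labelled female and numbered 1 to 3 in each group. Cntnap4 codes for a neurexin-like membrane protein of synapses. Strain, age and the kind of knockout allele are not in the labels, nor is it said whether each library came from its own animal, so the p-values measure only the spread between these libraries, which may be technical. The bacterium named in the series title is in none of the labels of these 6 libraries.

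These channels set the resting potential and shape the return to it, in contrast to the channels opened by depolarization alone. Kir channels pass current inward more easily than outward, because magnesium and polyamines block them from the inside. Members of the Kir3 group (GIRK) open when G-protein-coupled receptors such as GABA-B release G beta-gamma subunits, and those of the Kir6 group close when ATP is plentiful. K2P channels carry 2 pore loops in each subunit and leak potassium at rest. SK, BK and Slack/Slick channels open when calcium or sodium enters, and so brake repetitive firing. In glia, Kir4.1 takes up potassium that neurons release.

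Levels are in FPKM, which divides the fragments of a gene by its length and by the library size; where a ± stands, the value is the mean and SD of a group (n = 3). The libraries held 15933029 to 17789798 reads, recovered from the FPKM steps. The library size that the FPKM steps imply was not the same as these totals. It was 18704824 against 17789798 reads in WT1, and 16425894 against 17032578 in KO1. The other libraries differed less, in both directions. The part of this scaling in the levels of WT1 and KO1 was not tested by itself. A limma-voom fit on the recovered read totals, given below, changed the scaling together with other steps. Cntnap4 was at 3.53, 3.90 and 2.15 FPKM in WT1 to WT3 and at 1.08, 1.19 and 1.28 in KO1 to KO3, lower in each KO library (log2 fold change -0.92, limma adjusted p = 0.302). Of genes that mark the tissue, Slc17a7, the vesicular glutamate transporter of projection neurons, was at 201 FPKM or more in every library, and Rspo2, a marker of basolateral projection neurons, at 2.03 to 4.12. Others of the 9 listed basolateral markers varied more between libraries: Lypd1 was at 22.4 and 19.6 FPKM in WT1 and WT2 against 3.37 to 4.65 in the rest, and Cyp26b1 at 7.40 in WT1 against 0.49 to 2.87. Of the 9, 4 had a positive and 5 a negative log2 fold change. Some libraries stood apart. The summed level of 10 striatal and central amygdala markers was 853 FPKM in WT3 and 364 in KO3, against 71.4 to 225 in the others. In WT1 the sum of 12 oligodendrocyte markers was 286 FPKM, against 557 to 842 elsewhere.

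No member differed between the genotypes past the threshold. Of the 41 members, 26 had a mean of at least 1 FPKM over the 6 libraries and were tested, as part of a limma fit over 13087 genes on log2(FPKM + 1). At an adjusted p (Benjamini-Hochberg over all genes tested) under 0.05, 0 of the 26 were called, where 0.00764% of all genes tested were. Their smallest adjusted p was 0.302. At an unadjusted p under 0.05 there were 6 members, or 23.1% of those tested, where 14.3% of all genes reached it. Of the 6, 4 were higher in KO (7.05% of all genes) and 2 lower (7.25%). The same count was 8 with limma-voom on the recovered reads, where 15.0% of all genes reached it, and 0 members passed the threshold there too. An exact permutation test of a single gene has 0.1 as its smallest possible p with these 6 libraries.

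**Figure D1:**
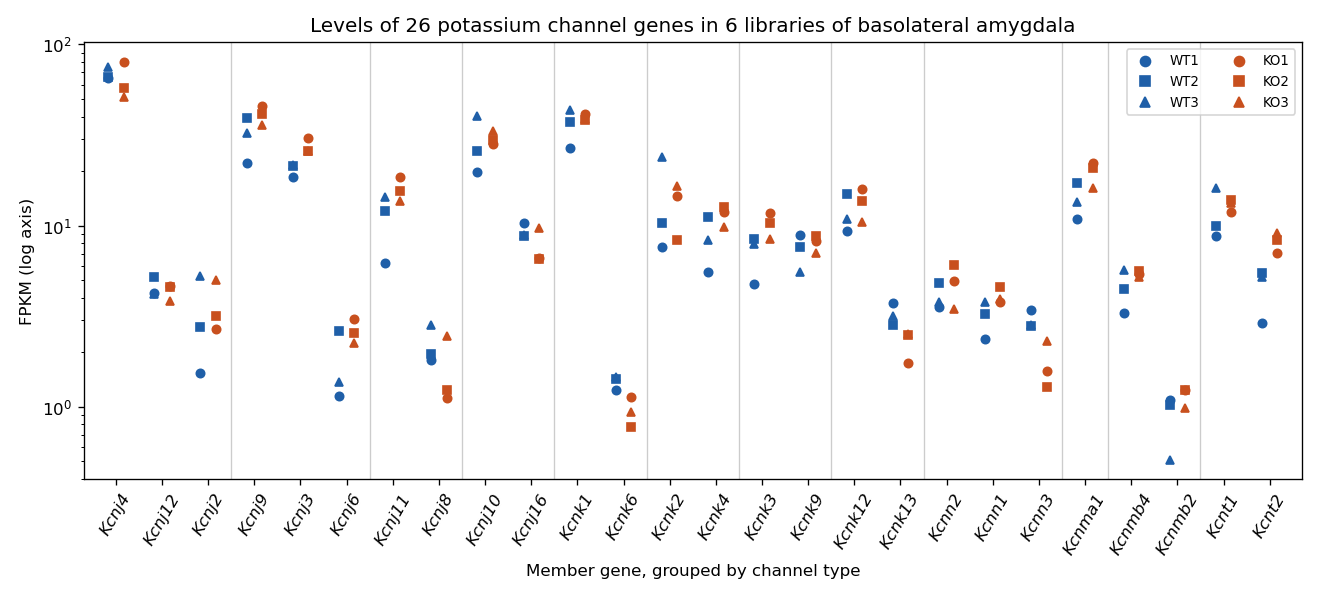
FPKM on a log axis of the 26 tested genes in each library, grouped by channel type with grey lines between groups; blue marks are WT, orange marks are KO, and the shape gives the replicate number. Kcnj4 stands highest, between 51.1 and 79.7 FPKM, and for most genes the blue and orange marks overlap, with the blue circle of WT1 often the lowest.

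The order of levels showed which channels the tissue held most of. Kcnj4, which encodes the strong inward rectifier Kir2.3 of forebrain neurons, was the highest in both groups at 68.7 ± 5.39 FPKM in WT against 62.8 ± 15.0 in KO, and its lowest WT value, 65.4, stood above every WT value of the next gene. That next gene, Kcnk1 (TWIK-1, a weakly conducting leak channel), was at 35.8 ± 8.51 in WT. Kcnj9, Kcnj10 and Kcnj3 followed, and these 5 genes were the ones with a mean above 20 FPKM. Below Kcnk1 the WT ranges of neighbouring genes overlapped down to Kcnk6, so that 23 of the 25 neighbouring pairs in the WT order did not separate; in KO 21 of 25 overlapped. Another 10 members had means between 5 and 20 FPKM, and 11 between 1 and 5.

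By class, Kir genes took 57.3 ± 1.46% of the summed FPKM of all 41 members in WT against 55.5 ± 1.46% in KO, and K2P genes 28.1 ± 1.28% and 28.0 ± 0.50%. The calcium- and sodium-gated genes, counted with Kcnu1, took 14.4%, 15.0% and 14.3% in WT1 to WT3 and 15.2%, 17.9% and 16.5% in KO1 to KO3. Their share was above every WT value in each KO library, although KO1 and WT2 were close. The summed level of this class was 37.6, 50.1 and 52.6 FPKM in WT against 58.7, 62.5 and 55.6 in KO. KO3 was the KO library nearest to WT. The sums of the Kir genes and of the K2P genes overlapped between groups.

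Among the G-protein-gated Kir3 (GIRK) subunits, all 3 tested genes had a positive log2 fold change. Their summed level with Kcnj5 was 42.1, 63.1 and 55.7 FPKM in WT against 79.2, 70.0 and 64.4 in KO, with KO3 just above WT2. Kcnj3 encodes GIRK1, the subunit that needs a partner to form a working channel at the membrane. It was at 18.5, 21.2 and 21.7 FPKM in WT1 to WT3 and at 30.3, 25.9 and 25.6 in KO1 to KO3. Every KO library was above every WT library, a ratio of means of 1.33. Its log2 fold change came to 0.39 (SE 0.11, 95% interval 0.13 to 0.66; limma adjusted p = 0.302), and it lay between 0.32 and 0.44 with any 1 library left out (0.33 without WT1). The gene (ENSMUSG00000026824) lies on chromosome 2 from 55435970 to 55598145 in the coordinates of the table, which the submitters' processing notes place on GRCm38 (mm10).

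Kcnj9, which encodes GIRK3, was the more abundant subunit at 22.2, 39.2 and 32.5 FPKM in WT against 45.7, 41.6 and 35.9 in KO. Each KO library was above the WT library of the same number, but the labels do not say that equal numbers form pairs. The groups overlapped, because KO3 lay below WT2 (log2 fold change 0.41, SE 0.21, limma adjusted p = 0.396). Without WT1, its lowest library, the log2 fold change was 0.19. Kcnj6, which encodes GIRK2, was at 1.15, 2.62 and 1.37 FPKM in WT against 3.07, 2.56 and 2.24 in KO. WT1 and WT3 were low and WT2 lay among the KO values (log2 fold change 0.45, SE 0.21, limma adjusted p = 0.377; 0.30 without WT1). Kcnj5, the GIRK4 gene of the heart, was between 0.0123 and 0.648 FPKM and was not tested.

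The proportions between these subunits did not separate the genotypes. Kcnj3 stood at 0.542 to 0.834 of the Kcnj9 level in WT against 0.624 to 0.715 in KO. The ratio of Kcnj3 to Kcnj6 was 8.09 to 16.1 in WT against 9.85 to 11.4 in KO. The differences in mean log2 ratio were -0.02 for Kcnj3 to Kcnj9 and -0.05 for Kcnj3 to Kcnj6 (exact permutation p = 0.9 for each, adjusted p = 0.975 over 13 pairs). The KO ratios lay inside the WT range, and the WT ratios were the more spread.

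Antisense genes overlap several of these loci, and none of the sources used here says whether counting used strand, so reads of the partners cannot be told apart. AC165271.1, antisense to Kcnj6, was at 0.98, 3.74 and 3.60 FPKM in WT against 7.56, 5.38 and 5.56 in KO, with no overlap (limma adjusted p = 0.303). Gm36937, antisense to Kcnj9, was at 1.77 ± 1.22 and 3.45 ± 0.78 and overlapped between groups. Gm9899, a processed transcript on the strand opposite Kcnk3, was at 1.36, 1.97 and 2.18 in WT against 3.51, 3.63 and 2.32 in KO, above WT in each KO library (limma adjusted p = 0.303). Their part in the values of the channel genes was not tested.

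Genes that act on GIRK channels showed no common direction. Of 26 listed G-protein subunits, GABA-B receptor genes, RGS proteins and GIRK regulators, 24 were tested, with 14 positive and 10 negative log2 fold changes and a median of 0.03, against 0.01 over all genes tested. None passed the threshold. At an unadjusted p under 0.05, 3 were lower and 0 higher, where 7.25% and 7.05% of all genes tested were. These were Gnai2, an inhibitory G alpha subunit, at 56.3 ± 3.92 FPKM in WT against 44.6 ± 2.54 in KO, Kctd12, an auxiliary subunit of GABA-B receptors, at 9.81 ± 3.39 and 5.93 ± 0.87, and Gnb2, a G beta subunit, at 85.7 ± 6.41 and 70.1 ± 3.61. The GABA-B receptor genes Gabbr1 and Gabbr2 were at 91.6 ± 4.69 and 54.3 ± 10.3 in WT against 85.8 ± 4.63 and 63.6 ± 12.2 in KO, and both overlapped.

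The strong rectifiers of the Kir2 group did not separate. Kcnj4 was at 65.4, 65.7 and 74.9 FPKM in WT against 79.7, 57.7 and 51.1 in KO, with the KO libraries on both sides of WT. Its log2 fold change was -0.15 with a 95% interval of -0.55 to 0.26 (limma adjusted p = 0.690). Kcnj12 (Kir2.2) was at 4.55 ± 0.56 and 4.35 ± 0.44 FPKM, with an interval of -0.33 to 0.23. Kcnj2 (Kir2.1) was at 1.53, 2.75 and 5.30 in WT against 2.70, 3.17 and 5.04 in KO. It was highest in WT3 and KO3, the libraries with the high striatal and central amygdala sums, and its log2 fold change of 0.21 turned to -0.10 when WT1 was left out.

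Kcnj14 (Kir2.4), the fourth Kir2 gene, had a mean under 1 FPKM and so was not tested. It was at 0.98, 1.10 and 1.46 FPKM in WT against 0.29, 0.42 and 0.56 in KO. All KO values lay below all WT values, at a ratio of means of 0.359. From 13 to 67 reads stood behind each value. With the minimum lowered to 0.5 FPKM it had a log2 fold change of -0.61 (SE 0.15, limma adjusted p = 0.326), and it was not called; it passed that minimum through the WT group, where it was high. The gene (ENSMUSG00000058743) lies on chromosome 7 from 45816460 to 45824782.

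The Kir6 pores form ATP-sensitive channels with sulfonylurea receptors. Kcnj11 (Kir6.2), the neuronal pore, was at 6.22, 12.1 and 14.3 FPKM in WT against 18.6, 15.5 and 13.7 in KO. WT1 was far below the rest and WT3 lay above KO3. The log2 fold change of 0.57 (SE 0.27, limma adjusted p = 0.379) was 0.25 without WT1. Its partner Abcc8 (SUR1) was at 1.28, 3.25 and 3.03 in WT against 4.79, 4.20 and 3.78 in KO, above WT in every KO library (limma adjusted p = 0.328). The ratio of Kcnj11 to Abcc8 was 3.72 to 4.88 in WT against 3.64 to 3.89 in KO, so the pore and its partner were low together in WT1.

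Kcnj8 (Kir6.1), the pore of vascular mural cells, was at 2.20 ± 0.56 FPKM in WT against 1.61 ± 0.74 in KO, and KO3, at 2.45, lay inside the WT range. Each KO library was below the WT library of the same number, at 1.12 against 1.80, 1.24 against 1.96 and 2.45 against 2.84. The pairing by number is uncertain. With the replicate block the log2 fold change of -0.32 was still not called. Without KO3 it was -0.54 and without WT3 it was -0.18. Its partner Abcc9 (SUR2) was at 1.89 ± 0.82 and 1.79 ± 0.49. The ratio of Kcnj8 to Abcc9 was 1.66, 1.05 and 1.04 in WT against 0.739, 0.833 and 1.04 in KO, and the highest KO ratio only just missed the lowest WT ratio (exact permutation p = 0.1, adjusted p = 0.65 over 13 pairs). Of 9 listed pericyte and smooth muscle markers all 8 tested had a negative log2 fold change, where 51.3% of all genes tested had a positive one. At an unadjusted p under 0.05, 3 were lower, where 7.25% of all genes tested were. Rgs5 hardly differed, at a log2 fold change of -0.007. The summed level of the 9 overlapped, at 76.1 to 142 FPKM in WT against 69.2 to 90.6 in KO. The part of these cells in the Kcnj8 values was not tested. In such bulk samples fewer cells of a type and less RNA per cell cannot be told apart.

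Kcnj10 (Kir4.1) and Kcnj16 (Kir5.1) assemble in astrocytes, where they clear potassium. Kcnj10 was at 19.7, 25.7 and 40.3 FPKM in WT against 28.1, 29.6 and 33.4 in KO, so the KO values lay within the wide WT range. Kcnj16 was at 10.3, 8.81 and 8.83 in WT against 6.64, 6.52 and 9.74 in KO. KO1 and KO2 were below WT and KO3 was not (log2 fold change -0.28, SE 0.16, limma adjusted p = 0.443; -0.44 without KO3). The ratio of Kcnj10 to Kcnj16 was 1.91 to 4.56 in WT against 3.42 to 4.54 in KO (exact permutation p = 0.4). Of 14 astrocyte markers 13 had a negative log2 fold change, where 51.3% of all genes tested had a positive one. At an unadjusted p under 0.05, 1 was lower, where 7.25% of all genes tested were. The sum of the 14 overlapped, at 819 to 1128 FPKM in WT against 767 to 887 in KO. The part of astrocytes in the Kcnj16 values was not tested. Kcnj13 (Kir7.1), a channel of choroid plexus and other transporting epithelia, was between 0.29 and 1.43 FPKM, from 6 to 34 reads. It was highest in WT1, where the sum of 7 choroid plexus and ependyma markers was also highest at 53.4 FPKM. Other libraries did not follow that sum. Kcnj13 was lowest in KO1, where the sum was 26.2 FPKM, and at 1.08 in WT2, where the sum was 18.3.

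**Figure D2:**
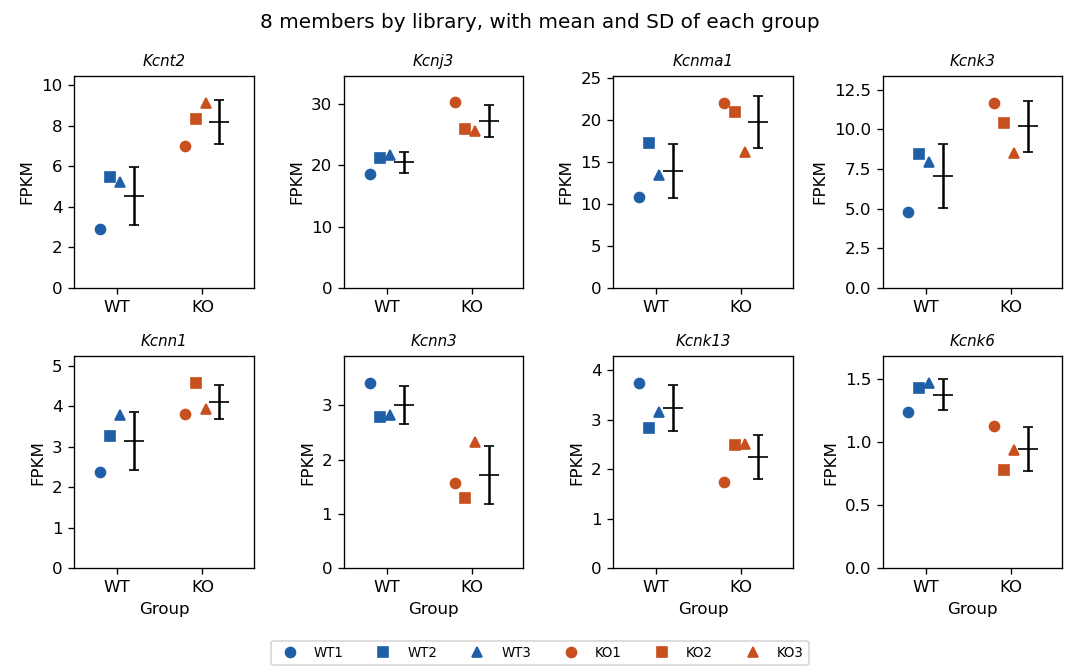
FPKM of 8 members in each library, with WT in blue and KO in orange, shapes for replicate numbers, and the mean and SD of each group as a black bar; each axis starts at 0. Kcnt2, Kcnj3, Kcnk3 and Kcnn1 lie higher in every KO library, by a narrow gap for Kcnk3 and Kcnn1, Kcnn3, Kcnk13 and Kcnk6 lie lower, and Kcnma1 overlaps.

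Leak channels of the K2P family gave members in both directions. Kcnk3 (TASK-1), an acid-sensitive leak channel, was at 4.77, 8.43 and 7.95 FPKM in WT against 11.7, 10.4 and 8.47 in KO. KO3 was above WT2 only in the second decimal. It had a log2 fold change of 0.50 (SE 0.21, 95% interval 0.01 to 0.98; limma adjusted p = 0.347). Without WT1 it was 0.27, and neither there nor with the replicate numbers as a block was the unadjusted p under 0.05. Kcnk9 (TASK-3), which forms mixed channels with TASK-1, was at 7.34 ± 1.71 and 8.04 ± 0.91 and overlapped. The ratio of Kcnk3 to Kcnk9 was 0.536, 1.11 and 1.44 in WT against 1.41, 1.18 and 1.20 in KO, so that WT1 was the library with the low ratio.

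Kcnk4 (TRAAK), a mechanosensitive channel, was at 5.58, 11.1 and 8.36 FPKM in WT against 11.9, 12.6 and 9.80 in KO. Each KO library was above the WT library of the same number, but that pairing is uncertain. The groups overlapped through WT2 and KO3 (log2 fold change 0.45, SE 0.22, limma adjusted p = 0.388; 0.22 without WT1). Its relative Kcnk2 (TREK-1) had the widest interval of the tested members, -0.95 to 0.98, with values of 7.63, 10.4 and 23.9 in WT against 14.5, 8.29 and 16.6 in KO. It was highest in WT3 and KO3, as Kcnj2 was. Its log2 fold change was 0.02 with all libraries and -0.30 without WT1. Kcnk10 (TREK-2) was at 0.97 ± 0.31 and 0.84 ± 0.03 and was just short of the minimum for testing, while Kcnmb2, with a mean of 1.02, was just inside it.

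Kcnk1 was at 26.7, 37.2 and 43.5 FPKM in WT against 41.2, 38.2 and 38.8 in KO, and Kcnk12 (THIK-2), a largely silent channel of neurons, at 9.36, 14.9 and 10.9 in WT against 15.9, 13.7 and 10.5 in KO. Both overlapped widely, with 95% intervals of -0.25 to 0.57 for Kcnk1 and -0.29 to 0.65 for Kcnk12. Kcnk1 lies on the same chromosome as Cntnap4, with 13.3 Mb between their midpoints; Kcnn1 and Kcnu1 lie there too, at 41.9 and 86.8 Mb.

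Kcnk13 and Kcnk6 were lower in each KO library. Kcnk13 (THIK-1), the leak channel of microglia, was at 3.75, 2.83 and 3.16 FPKM in WT against 1.74, 2.48 and 2.52 in KO, a ratio of 0.693. It had a log2 fold change of -0.39 (SE 0.15, 95% interval -0.73 to -0.05; limma adjusted p = 0.323), and -0.31 without WT1; with the replicate block the unadjusted p was not under 0.05. Kcnk6 (TWIK-2), known from macrophages, was at 1.24, 1.43 and 1.47 in WT against 1.13, 0.78 and 0.94 in KO, a ratio of 0.688 (log2 fold change -0.29, SE 0.14, limma adjusted p = 0.374). KO1 lay close to WT1, and without WT1 the log2 fold change was -0.33. Kcnk6 was above 1 FPKM on average in WT alone, so it passed the minimum through that group.

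Markers of microglia were lower on average in KO as well. All 14 tested had a negative log2 fold change, where 51.3% of all genes tested had a positive one. Of the 14, 0 were past the threshold and 6 were lower at an unadjusted p under 0.05, where 7.25% of all genes tested were. The sum of the 14 was 247, 243 and 332 FPKM in WT against 189, 173 and 227 in KO, with no overlap. Kcnk13 was highest in WT1, while the microglial sum was highest in WT3. The part of microglia in the Kcnk13 and Kcnk6 values was not tested.

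The calcium-gated SK genes did not share a direction. Kcnn3 (SK3) was at 3.41, 2.79 and 2.82 FPKM in WT against 1.57, 1.29 and 2.32 in KO, lower in each KO library at a ratio of 0.574. Its log2 fold change came to -0.57 (SE 0.16, 95% interval -0.95 to -0.19; limma adjusted p = 0.302), the most negative of the 26 tested members, and it was -0.72 to -0.45 with any 1 library left out (-0.50 without WT1). KO3 was the KO library nearest to WT. The gene (ENSMUSG00000000794) lies on chromosome 3 from 89520164 to 89675132.

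Kcnn1 (SK1) was at 2.38, 3.26 and 3.80 FPKM in WT against 3.81, 4.58 and 3.93 in KO. KO1 exceeded WT3 only in the second decimal (log2 fold change 0.31, SE 0.15, limma adjusted p = 0.38; 0.17 without WT1). Kcnn2 (SK2), an SK subunit of projection neurons, was at 3.56, 4.83 and 3.81 in WT against 4.96, 6.07 and 3.48 in KO and overlapped. The ratio of Kcnn2 to Kcnn3 was 1.04, 1.73 and 1.35 in WT against 3.17, 4.70 and 1.50 in KO. KO1 and KO2 were above WT and KO3 was inside it, and the difference in mean log2 ratio was 0.76 (exact permutation p = 0.2, adjusted p = 0.812 over 13 pairs). Kcnn4 (SK4), the intermediate-conductance channel of blood and microglial cells, was at most 0.115 FPKM.

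Genes for the calcium sensor and enzymes bound to SK channels showed little. Of 8 listed calmodulin, casein kinase 2 and protein phosphatase 2A genes, all tested, 5 were positive and 3 negative, with a median of 0.05, and 0 had an unadjusted p under 0.05. Csnk2a1, a catalytic subunit of casein kinase 2, was the one with no overlap, at 11.6 ± 0.77 FPKM in WT against 13.2 ± 0.71 in KO. Over all genes tested 11.9% had KO values all above WT values.

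Kcnma1 encodes the pore of the BK channel, which responds to calcium and voltage together. It was at 10.9, 17.2 and 13.5 FPKM in WT against 22.0, 20.9 and 16.2 in KO. KO3 lay below WT2, so the groups overlapped, at a ratio of means of 1.42 (log2 fold change 0.49, SE 0.18, 95% interval 0.06 to 0.92; limma adjusted p = 0.325). Each KO library was above the WT library of the same number, but that pairing is uncertain. Without WT1 the log2 fold change was 0.34, with an unadjusted p no longer under 0.05. The gene (ENSMUSG00000063142) lies on chromosome 14 from 23289431 to 24014491 and, at 16976 bases in the table, has the greatest length of the members.

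Of the BK subunits, Kcnmb4, the neuronal beta subunit that slows the channel, was at 4.50 ± 1.20 FPKM in WT against 5.41 ± 0.22 in KO, and the ratio of Kcnma1 to Kcnmb4 overlapped at 2.35 to 3.86 and 3.11 to 4.09. Kcnmb2, whose subunit inactivates the channel, was at 0.87 ± 0.32 and 1.16 ± 0.14, and passed the minimum through the KO group. Kcnmb1, the smooth muscle subunit, was between 0.03 and 0.49 FPKM. Among 5 listed genes of leucine-rich auxiliary subunits and a binding partner, 4 were tested. Of the 4, 2 had KO values above all WT values, where 11.9% of all genes tested did. These were Lrrc55 at 3.28 ± 1.16 and 5.76 ± 0.93 (limma adjusted p = 0.303) and Lrrc38 at 0.72 ± 0.32 and 1.57 ± 0.18 (limma adjusted p = 0.303), the latter passing the minimum through the KO group.

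Kcnt2 and Kcnt1 encode the sodium-gated channels Slick and Slack. Kcnt2 was at 2.90, 5.49 and 5.21 FPKM in WT against 7.02, 8.36 and 9.15 in KO, above WT in each KO library. At a ratio of 1.80 and a log2 fold change of 0.76 (SE 0.21, 95% interval 0.27 to 1.25; limma adjusted p = 0.302) it had the highest log2 fold change of the 26 tested members. Without WT1, its lowest library, 0.52 was found (limma adjusted p = 0.480), and KO still lay above WT2 and WT3. Between 374 and 1040 reads stood behind each value. The gene (ENSMUSG00000052726) lies on chromosome 1 from 140246158 to 140612067.

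Kcnt1 was the more abundant of the pair, at 8.77 to 16.2 FPKM (11.7 ± 3.98) in WT against 11.9 to 13.8 (13.0 ± 0.98) in KO, and its KO values lay inside the WT range. The ratio of Kcnt2 to Kcnt1 was 0.331, 0.549 and 0.322 in WT against 0.588, 0.603 and 0.689 in KO. Every KO ratio was above every WT ratio, with a difference of 0.57 in mean log2 ratio (exact permutation p = 0.1, adjusted p = 0.65 over 13 pairs). Of the 13 pairs compared, Kcnt2 to Kcnt1 and Kcnj8 to Abcc9 were the pairs whose groups did not overlap. No pair could pass the threshold, because 0.1 is the smallest possible exact p with 3 libraries against 3, so this test cannot decide between them.

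Without overlap between groups there were 7 of the 26 tested members, or 26.9%, where 22.0% of all genes tested had KO values outside the WT range. Of the 7, 4 were higher in KO (Kcnt2, Kcnj3, Kcnk3 and Kcnn1), where 11.9% of all genes were, and 3 lower (Kcnn3, Kcnk13 and Kcnk6), where 10.1% were. The shares of members were near those of all genes. Of the tested members 19, or 73.1%, had a positive log2 fold change, against 51.3% of all genes, and the median was 0.19 against 0.01. Counting also the members under the minimum, 39 had a value above 0 and 21 of them were positive, with a median of 0.02. The 34 tested voltage-gated potassium channel genes had a median of 0.26, with 25 positive.

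**Figure D3:**
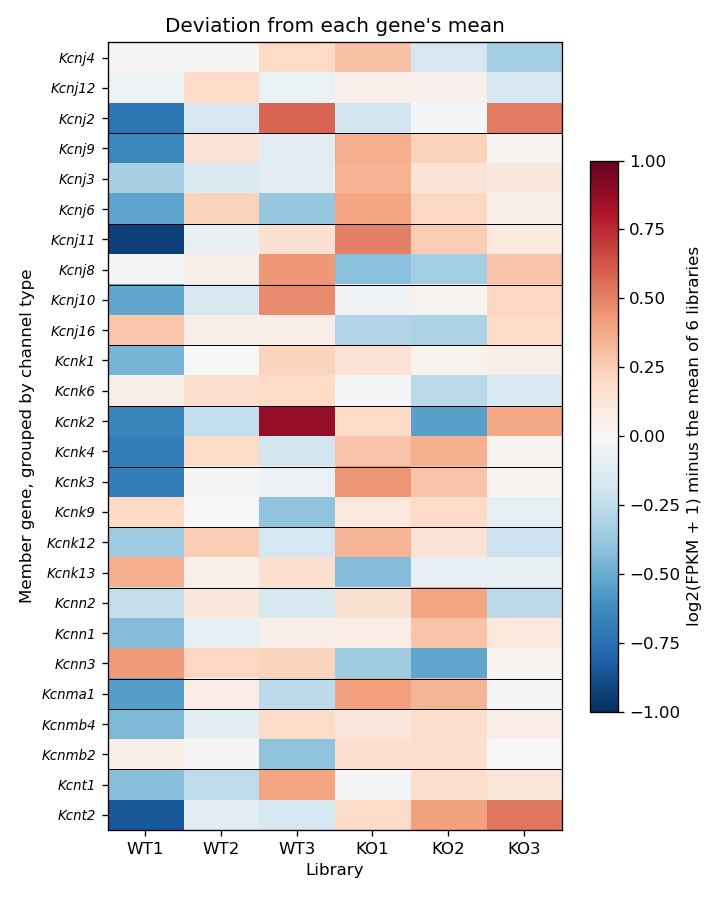
Deviation of log2(FPKM + 1) from each gene's mean over the 6 libraries, for the 26 tested genes in rows grouped by channel type (black lines) and the libraries in columns; red is above and blue below the mean. The column of WT1 is blue for most genes, and Kcnk2, Kcnj2 and Kcnj10 are red in WT3 and KO3.

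The positive shift of the members was smaller without WT1. That library held the lowest value of 16 of the 26 tested members, where 27.5% of all genes tested had their lowest value there. The median deviation of the members from their own means was -0.43 in WT1, 0.01 in WT2, 0.07 in WT3, 0.15 in KO1, 0.15 in KO2 and 0.04 in KO3, on the log2(FPKM + 1) scale. Over all genes tested it was between -0.01 and 0.02 in every library. Without WT1, 14 of 25 tested members were positive and their median was 0.05, against 0.01 over all genes, and 3 members had an unadjusted p under 0.05 (Kcnt2, Kcnj3 and Kcnn3), where 9.45% of all genes did. Without both libraries numbered 3 the log2 fold change was 0.78 for Kcnt2, 0.48 for Kcnj3 and -0.75 for Kcnn3, and 0 members passed the threshold there either.

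For Kcnn3, Kcnk13, Kcnj16 and Kcnk9, in contrast, WT1 was the highest library. Markers of several cell types were also high or low in that library. The sum of 10 excitatory neuron markers was 1353 FPKM in WT1 and 1591 to 2022 elsewhere, that of 8 meningeal fibroblast markers 35.6 against 7.54 to 17.7, and that of 8 oligodendrocyte precursor markers 52.9 against 24.2 to 36.6. Among the excitatory markers Neurod6 and Tbr1 were above WT in each KO library and lowest in WT1, at 7.06 and 19.8 FPKM there. The part of these differences between libraries in the channel values was not tested.

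**Figure D4:**
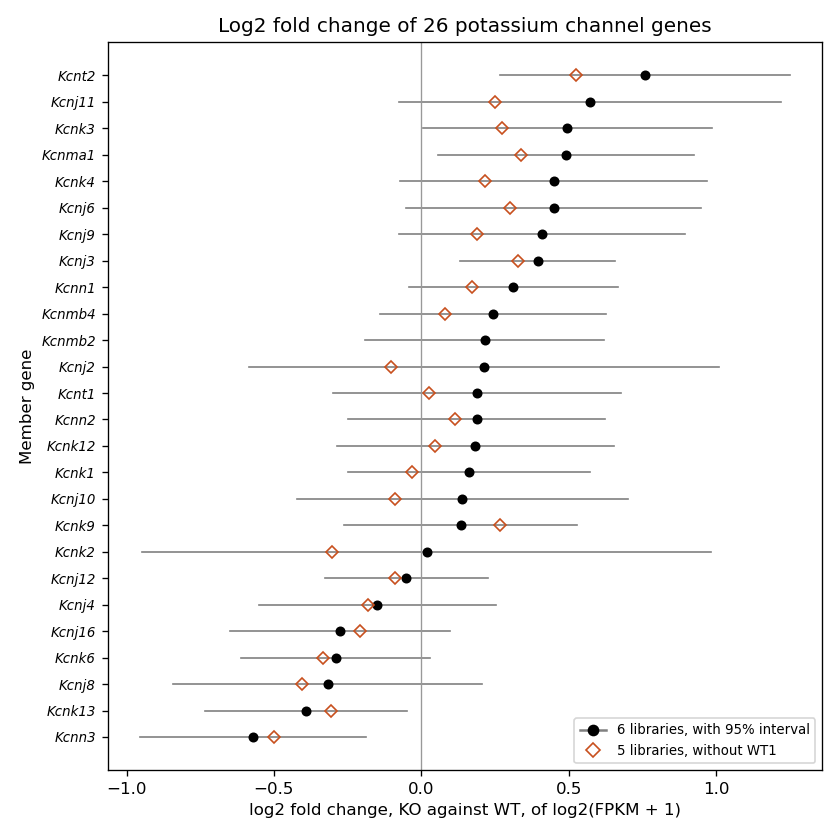
Log2 fold change of KO against WT on the log2(FPKM + 1) scale for the 26 tested genes, as black points with 95% intervals from 6 libraries; orange diamonds are the same value without WT1 (Kcnmb2 then falls under the minimum level). For most genes with positive values the diamonds lie nearer to 0 than the points. Kcnt2, Kcnj3 and Kcnn3 keep most of their size, as do others such as Kcnma1 and Kcnk13. For some genes with negative values, such as Kcnk6 and Kcnj8, the diamonds lie farther from 0.

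Length was not far from that of other genes. The tested members had a median length of 4220 bases in the table against 4171 over all genes tested; the 19 positive members had a median of 4943 and the 7 negative ones 3112. With the trend of each library with gene length removed, the median log2 fold change of the members was 0.22, and 6 members had an unadjusted p under 0.05, where 11.7% of all genes did. Kcnma1, the longest member, was not among them, at a log2 fold change of 0.29 in place of 0.49, while Kcnk4 was, at 0.57.

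Phosphoinositides keep Kir and many K2P channels open, and genes of their turnover were taken as a list. Of 12 listed kinases, phospholipases and phosphatases 11 were tested, with 9 positive and a median of 0.17. Over all genes tested 51.3% were positive and the median was 0.01. At an unadjusted p under 0.05, 2 were higher, where 7.05% of all genes tested were. These were Plcb4, a phospholipase C that breaks the lipid down, at 3.37, 7.16 and 8.17 FPKM in WT against 9.89, 10.5 and 12.4 in KO (limma adjusted p = 0.308), and Pi4ka, a kinase that makes its precursor, at 22.9 ± 3.37 and 31.3 ± 4.30 (limma adjusted p = 0.303). Plcb4 did not overlap and Pi4ka did. Of 9 listed genes of K2P trafficking 8 were tested, 3 positive and 5 negative. S100a10, an adaptor that brings TASK-1 to the membrane, was at 23.1, 18.5 and 18.1 FPKM in WT against 12.5, 14.2 and 13.4 in KO, opposite in direction to Kcnk3 (limma adjusted p = 0.302).

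The remaining members were at low levels. Of the 15 that were not tested, 7 had a mean under 0.1 FPKM. Kcnj1 (ROMK of the kidney) and Kcnmb3 had 0 reads in every library, and a count of 0 allows up to 3 reads per library, or at most 0.0562 FPKM for Kcnj1 and 0.109 for Kcnmb3, as counting error alone. Kcnk16 and Kcnk18 (TRESK of sensory neurons) had at most 2 reads, all in WT2. Kcnk7, Kcnk15 and Kcnj15 had at most 12 reads in any library and 0 in at least 2. Kcnu1, the sperm channel Slo3, was at 0.75 ± 0.14 FPKM in WT against 0.54 ± 0.14 in KO, and Kcnk5 at 0.24 ± 0.11 and 0.20 ± 0.09.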

How the data were processed

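Per the file headers, the authors deposited 1 table of FPKM per Ensembl gene for the 6 libraries, with gene name, position, length and biotype. Genome builds GRCm38 and mm10 are named in the submitters' processing notes; the aligner, read counter, annotation release and strand setting were not given in the sources used here. Per the labels' protocols, RNA came from a Qiagen column kit and libraries from a SMARTER mRNA kit. Multiplying FPKM by length recovered whole reads for 100% of values above 0 (tolerance 0.01 reads), 15933029 to 17789798 per library; limma-voom on these reads called 1 gene of 13087 and 0 members.

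Genes whose mean reached 1 FPKM were fitted as log2(FPKM + 1) with limma 3.58.1 in R 4.3.3 (empirical Bayes, variance trend, two-sided; Benjamini-Hochberg over 13087 genes), so fold changes understate those of low genes. The fit was also run on simulated counts that lacked the marker differences between libraries of a group seen here. That run does not show how the fit behaves with such differences. Subunit ratios used log2 of (FPKM + 1) ratios and exact permutation tests, two-sided, adjusted over 13 pairs; printed ratios are of FPKM. Summed marker levels are sums of FPKM.

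The members and gene lists were chosen with earlier results of these data known. Members of at least 1 FPKM were named, with every library's value for those at an unadjusted p under 0.05, without overlap or of highest level; Kcnj14 and others given by library were added after their values were seen. Of other lists up to 3 genes of smallest p were named, beside defining markers, channel partners and genes antisense to members chosen after seeing values. The labels number the libraries within each group, and the numbers alone do not show a pairing between groups. They were used as a pairing for the block and for comparisons of libraries of the same number. This rested on these same data, where deviations from group means correlated across genes for libraries of the same number (0.17, 0.15 and 0.33). WT2 correlated more with KO1 (0.28) than with KO2, so the pairing is uncertain. Alternatives were pseudocounts, filters, scalings, sample weights, the replicate block, limma-voom and leaving out libraries.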

Additional observations from a re-analysis of the deposited data

How the results depend on the processing

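Under 19 alternatives, 0 members passed an adjusted p of 0.05 in any, and 19 of the 26 tested members kept the direction of their log2 fold change in each alternative that tested them. With the replicate block 0 members passed as well and 4 had an unadjusted p under 0.05, where 17.8% of all genes did; the block changed no call. The number of members at an unadjusted p under 0.05 was 3 to 9 with 1 library left out (3 without WT1; over all genes 6.74% to 18.6%), and the number without overlap 7 to 15 (15 without KO3, where 35.9% of all genes did not overlap). Without both libraries numbered 3, chosen after seeing the data, these numbers were 11 and 19, where 14.6% of all genes had such a p and 53.3% did not overlap. The median log2 fold change was 0.05 (without WT1) to 0.39 (without WT3) with 1 library left out. After each library was scaled to the same total 59.1% of all genes were positive, and the median of all genes was 0.06, against 0.24 for the members.

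The 7 members that turned direction had log2 fold changes from -0.15 to 0.21 with all libraries, and the cause was not tested. Some members of like size, such as Kcnk12 at 0.18, never turned. Of the tested members Kcnk2 and Kcnj2, which turned, had the largest SE, at 0.41 and 0.34. With 1 library left out the log2 fold change ranged from -0.088 to 0.41 for Kcnj10, -0.10 to 0.031 for Kcnj12, -0.10 to 0.56 for Kcnj2, -0.030 to 0.31 for Kcnk1, -0.30 to 0.46 for Kcnk2, -0.034 to 0.27 for Kcnk9 and -0.33 to -0.015 for Kcnj4. With the length trend removed, with or without the block, it was 0.013 for Kcnj12 and -0.017 for Kcnk9; with array weights it was -0.14 for Kcnk2; and without both libraries numbered 3 it was 0.048 for Kcnj4 and 0.32 for Kcnk1. The differences in log2 ratio, again with 1 library left out, ranged from -0.11 to 0.038 for Kcnj11 to Abcc8 and -0.015 to 0.65 for Kcnj2 to Kcnj12. They ranged from -0.26 to 0.065 for Kcnj3 to Kcnj6, -0.17 to 0.14 for Kcnj3 to Kcnj9 and -0.24 to 0.010 for Kcnj4 to Kcnj12. For Kcnj6 to Kcnj9 the range was -0.083 to 0.11, and for Kcnn1 to Kcnn2 -0.030 to 0.27. With all libraries and a pseudocount of 0.1, the difference was -0.21 for Kcnj11 to Abcc8, -0.25 for Kcnj3 to Kcnj6 and 0.24 for Kcnj6 to Kcnj9. In no setting did a pair pass, and none could, since the smallest possible exact p was 0.1.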
